A study of Mus musculus with 12 samples.

Results

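The genes described here are 10 genes of steroid synthesis and steroid inactivation, namely Star, Cyp11a1, Fdx1, Fdxr, Hsd3b1, Cyp19a1, Hsd17b1, Hsd17b7, Sult1e1 and Akr1c18. They were found by symbol among the 29101 genes listed for mural granulosa cells (MGCs, which line the follicle wall) and the 33137 genes listed for cumulus cells (which surround the oocyte), and all 10 are in both tables. The series holds 12 RNA-seq libraries, 3 for each genotype in each cell type, from immature female mice primed with eCG and collected 2 h post-hCG (hCG acts on the LH receptor). The Sphk1/2gc-/- mice were Sphk1-/-; Sphk2 fl/fl; Fshr-Cre, so that Sphk1, which encodes 1 of the 2 sphingosine kinases, was deleted in all cells, whereas Sphk2 was to be deleted only where the Fshr promoter drives Cre, in granulosa cells. The study describes its WT C57/BL6 mice as purchased, and the labels of the WT libraries say only control. Whether the sequenced controls were littermates or carried Cre or floxed alleles is not stated. The labels do not tell how many animals gave a library, so the p-values measure the spread between libraries. The question was how the levels of these transcripts differed between the genotypes in each cell type, and between the cell types.

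Steroids of the follicle are made from cholesterol in a chain of steps. The STAR protein carries cholesterol to the inner mitochondrial membrane, where CYP11A1 cleaves its side chain with electrons that FDXR takes from NADPH and FDX1 passes on, and HSD3B1 converts the pregnenolone formed into progesterone. Granulosa cells also convert androgens from theca cells into estrogens with aromatase (CYP19A1), and HSD17B1 and HSD17B7 reduce estrone to estradiol. HSD17B7 also acts in cholesterol synthesis. Of the inactivating enzymes, SULT1E1 adds sulfate to estrogens, and AKR1C18 reduces progesterone to a form with little activity. The LH surge is known to turn granulosa cells from estrogen synthesis towards progesterone synthesis.

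The library totals that the FPKM values were scaled by, as recovered from these values, were 16100365 to 19761604 reads. The reads recovered over all genes summed to more in every library (17413879 against 16492894 in WT MGC library 1). Sphk1 was low in all libraries, with 37 to 151 reads in WT and 9 to 45 reads in Sphk1/2gc-/- MGCs. In cumulus cells it had 6 to 8 reads in WT but 7, 43 and 51 reads in the libraries labelled Sphk1/2gc-/-. Sphk1 thus exceeded WT, against the label, in labelled cumulus libraries 2 and 3, whereas library 1 lay within the WT range. All these values were low (0.0699 to 0.557 FPKM). Every direction given below for cumulus cells rests on the labels. Sphk2 overlapped between the genotypes in both cell types, with 0.403 to 0.752 FPKM over all cumulus libraries. In MGCs it was at 5.18 to 5.86 FPKM in WT and 4.51 to 6.29 FPKM in Sphk1/2gc-/- libraries. As Sphk1 also overlapped in MGCs, neither transcript separated the genotypes there, and the MGC directions rest on the labels too. Sphk1/2gc-/- MGC library 3 stood apart, as its values correlated with those of the other MGC libraries at 0.909 to 0.938, against 0.962 to 0.988 among the latter. WT cumulus library 3 had 27541 genes above 0, against 18788 to 19289 in the other cumulus libraries. Of the granulosa markers, Inha was abundant in both cell types (means of 8338 and 1630 FPKM in WT), whereas Amh was at 87.3 to 226 FPKM in MGCs and 0.102 to 2.16 FPKM in cumulus cells. The 8 oocyte markers summed to 28.6 to 116 FPKM in MGC libraries and 1.26 to 5.24 FPKM in cumulus libraries. As these were bulk samples, fewer cells of a type and less RNA per cell cannot be told apart.

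The bases upstream of the annotated starts were examined to show which short motifs lie there. The RefSeq promoter table (GRCm38.p6) held 8 of the 10 genes. Star and Hsd17b1 had no entry. The 250 bases before the start are shown for a pair of genes that were lower in the libraries labelled Sphk1/2gc-/- cumulus cells (Hsd3b1 and Hsd17b7) and for a pair that was not called between the genotypes in either cell type (Fdx1 and Sult1e1). All lie on the minus strand, at chr3:98859795-98860044 for Hsd3b1, chr1:169969206-169969455 for Hsd17b7, chr9:51963603-51963852 for Fdx1 and chr5:87591612-87591861 for Sult1e1, and they are written 5′ to 3′ along the gene. Capitals mark matches on either strand to 8 sets of letters. The cores bound by NR5A receptors were searched as AAGGTCA and in the variant form AAGGCCA. The half-site of the cAMP response element (CRE) was searched as TGACG, and C/EBP factors by the letters TTNNGNAA. The GATA letters were TGATAA and in the variant form AGATAA, those of SP1 were GGGCGG, and those of the TATA box were TATAAA. None of the letters contains another of these sets.
Hsd3b1: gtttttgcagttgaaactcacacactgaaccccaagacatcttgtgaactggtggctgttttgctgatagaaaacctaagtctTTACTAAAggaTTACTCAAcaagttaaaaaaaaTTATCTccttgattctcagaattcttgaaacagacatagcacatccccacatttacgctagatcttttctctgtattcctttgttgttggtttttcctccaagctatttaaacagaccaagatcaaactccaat
Hsd17b7: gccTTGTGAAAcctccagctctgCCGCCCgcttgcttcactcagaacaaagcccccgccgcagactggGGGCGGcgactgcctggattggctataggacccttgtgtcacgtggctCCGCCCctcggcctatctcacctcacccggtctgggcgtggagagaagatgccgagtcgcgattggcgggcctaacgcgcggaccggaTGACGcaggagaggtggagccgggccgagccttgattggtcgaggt
Fdx1: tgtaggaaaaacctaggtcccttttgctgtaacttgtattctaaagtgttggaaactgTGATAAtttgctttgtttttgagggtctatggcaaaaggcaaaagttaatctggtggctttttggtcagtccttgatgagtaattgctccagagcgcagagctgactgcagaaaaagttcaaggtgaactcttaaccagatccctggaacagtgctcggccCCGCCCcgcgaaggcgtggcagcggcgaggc
Sult1e1: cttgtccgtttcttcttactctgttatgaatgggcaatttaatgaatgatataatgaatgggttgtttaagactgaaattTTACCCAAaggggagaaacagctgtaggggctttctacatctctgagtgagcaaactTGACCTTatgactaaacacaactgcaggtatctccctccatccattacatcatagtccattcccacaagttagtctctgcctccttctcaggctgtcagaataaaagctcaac
The Hsd3b1 window held 2 matches to the C/EBP letters and 1 to AGATAA. That of Hsd17b7 held 3 matches to the SP1 letters, 1 to the C/EBP letters and 1 CRE half-site, whereas that of Fdx1 held 1 match to TGATAA and 1 to the SP1 letters. The Sult1e1 window held the AAGGTCA core and 1 match to the C/EBP letters. No motif was found in both windows of the first pair other than the C/EBP letters, which 36.8% of 32851 RefSeq windows of the same length hold. The other shares were 4.08% for AAGGTCA, 5.24% for AAGGCCA, 17.8% for TGACG, 7.94% for TGATAA, 9.99% for AGATAA, 32.7% for GGGCGG and 12.4% for TATAAA. A match describes letters and is not a binding site.

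In MGCs, the levels of Star, Cyp11a1, Hsd17b7 and Fdx1 were lower in every Sphk1/2gc-/- library than in every WT library, but no gene of the 10 passed the test over all genes. Values are FPKM, which are scaled by exon length and by the reads of the library, so that levels can be compared between genes. Calls needed a limma adjusted p not above 0.05 (Benjamini-Hochberg, on log2(FPKM + 1), over all 15279 tested genes) together with a difference no smaller than 1 on the log2 scale. Of all tested genes, 0.0393% were called in MGCs, 9.17% were lower without overlap and 7.72% higher without overlap. Of the 10 genes, 0 were called by limma and 0 by limma-voom on recovered reads. At an unadjusted p of 0.05 or less there were 2 by limma (Cyp11a1 and Hsd17b7) and 3 by limma-voom, against 9.2% of all genes by limma. The median log2 fold change of the 10 genes was −0.38, and that of all genes was −0.0034.

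Star (ENSMUSG00000031574, chr8:25806555-25815982, 8 exon blocks) measured 1080, 889.8 and 521 FPKM in libraries 1 to 3 of WT MGCs, compared with 436, 395 and 47.1 FPKM in those of Sphk1/2gc-/- MGCs. All Sphk1/2gc-/- libraries were below the lowest WT library, and library 3 was far below the other two. The log2 fold change was −1.97 (SE 0.837, 95% interval −3.96 to 0.01, limma adjusted p = 0.547). Without Sphk1/2gc-/- library 3 it was −0.94 (limma adjusted p = 0.191), so that this library moved the value by over 1.5 times. Over all alternatives its limma adjusted p ranged from 0.00874 to 0.999.

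Cyp11a1 (ENSMUSG00000032323, chr9:58006411-58027023, 10 exon blocks) measured 346, 267 and 520 FPKM in WT MGCs, compared with 181, 160.0 and 58.2 FPKM in Sphk1/2gc-/- MGCs. The groups did not overlap here either, and library 3 was the highest of WT and the lowest of Sphk1/2gc-/-. Its log2 fold change was −1.60 (SE 0.459, limma adjusted p = 0.349) and −1.09 without Sphk1/2gc-/- library 3, with limma adjusted p-values of 0.0151 to 0.991 over its alternatives. Of its exon bases, 145 are shared with Gm17322 on the same strand.

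The electron carriers of the side-chain cleavage differed from each other. Fdx1 (ENSMUSG00000032051, chr9:51943306-51963556), the ferredoxin, measured 1133, 1070 and 1292 FPKM in WT MGCs, compared with 1009, 908 and 430 FPKM in Sphk1/2gc-/- MGCs. The groups did not overlap, but the log2 fold change was −0.66 (SE 0.333, limma adjusted p = 0.603), and −0.28 without Sphk1/2gc-/- library 3. Fdxr (ENSMUSG00000018861, chr11:115268024-115277050), the reductase, measured 27.4, 28.2 and 46.0 FPKM in WT MGCs, compared with 26.2, 31.5 and 48.9 FPKM in Sphk1/2gc-/- MGCs, and its groups overlapped. Fdx1 exceeded Cyp11a1 2.49- to 4.01-fold in the WT and 5.58- to 7.39-fold in the Sphk1/2gc-/- libraries, without overlap.

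Hsd3b1 (ENSMUSG00000027871, chr3:98852194-98859794), which makes progesterone, was the most abundant of the 10 genes in MGCs. It measured 1908, 1579 and 3569 FPKM in WT MGCs, compared with 1982, 1829 and 2395 FPKM in Sphk1/2gc-/- MGCs. The groups overlapped, with a log2 fold change of −0.10 (95% interval −0.89 to 0.69).

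Among the genes of estrogen synthesis, only Hsd17b7 showed no overlap between the genotypes in MGCs. Cyp19a1 (ENSMUSG00000032274, chr9:54165937-54268110), aromatase, measured 132, 144 and 366 FPKM in WT MGCs, compared with 266, 261 and 404 FPKM in Sphk1/2gc-/- MGCs. WT library 3 lay among the Sphk1/2gc-/- libraries, and the log2 fold change of 0.67 did not pass (SE 0.407, limma adjusted p = 0.674). Without WT library 3 it was 1.14 (limma adjusted p = 0.155), a change of over 1.5 times, and 0.40 without WT library 1. Over its alternatives the limma adjusted p ranged from 0.0056 to 0.999.

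Hsd17b1 (ENSMUSG00000019301, chr11:101078411-101080527) measured 287, 278 and 561 FPKM in WT MGCs, compared with 267, 247 and 679 FPKM in Sphk1/2gc-/- MGCs. The groups overlapped, with a log2 fold change of 0.0016 (95% interval −1.07 to 1.07). Hsd17b7 (ENSMUSG00000026675, chr1:169949535-169969241) measured 44.6, 31.1 and 75.6 FPKM in WT MGCs, compared with 10.3, 9.84 and 16.9 FPKM in Sphk1/2gc-/- MGCs. Library 3 was the highest in both genotypes, and the groups were far apart. The log2 fold change was −1.89 (SE 0.346, limma adjusted p = 0.157), a 3.71-fold lower level. With any library left out it was between −2.19 and −1.56, with a limma adjusted p of 0.0566 to 0.649, and over all alternatives the lowest was 0.00239.

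The inactivating enzymes overlapped between the genotypes in MGCs. Sult1e1 (ENSMUSG00000029272, chr5:87575969-87591594), the estrogen sulfotransferase, measured 551, 436 and 191 FPKM in WT MGCs, compared with 409, 339.8 and 33.1 FPKM in Sphk1/2gc-/- MGCs. Its log2 fold change was −1.09 (SE 0.955, limma adjusted p = 0.767) and 0.06 without Sphk1/2gc-/- library 3. Akr1c18 (ENSMUSG00000021214, chr13:4132615-4150654), the progesterone-reducing enzyme, was the lowest of the 10 genes, with 1.21, 5.09 and 6.78 FPKM in WT MGCs, compared with 5.38, 3.33 and 9.99 FPKM in Sphk1/2gc-/- MGCs (log2 fold change 0.51, 95% interval −0.76 to 1.78).

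Library 3 differed from libraries 1 and 2 in the same way in both genotypes for 8 of the 10 genes. It had the lowest Star and Sult1e1 and the highest Hsd3b1, Cyp19a1, Hsd17b1, Hsd17b7, Fdxr and Akr1c18 of its genotype. Other transcripts set Sphk1/2gc-/- library 3 apart as well. The 4 cumulus expansion markers, which respond to the LH surge, summed to 187 FPKM in it and to 1077 to 2191 FPKM in the other MGC libraries, and Pgr, also an LH-responsive gene, was at 16.2 FPKM against 98.8 to 139 FPKM. The 8 proliferation markers summed to 359.5 FPKM against 185 to 237 FPKM, and the 8 theca markers to 66.2 FPKM against 140.2 to 229 FPKM. Cyp17a1 and Aldh1a1 made up most of the theca sums. Of the other theca markers, Hhip was at its lowest but Ptch1 and Insl3 at their highest in Sphk1/2gc-/- library 3. All 4 expansion, all 8 proliferation and all 8 theca markers were above 0 in it. The sums of other markers separated the genotypes in all MGC libraries. The 10 leukocyte markers summed to 317.5, 259.7 and 165 FPKM in WT and to 112, 137 and 25.9 FPKM in Sphk1/2gc-/- MGCs, with 0 to 1 at 0 in a library. S100a8, S100a9 and Lyz2 made up most of these sums. Of the 8 tested leukocyte markers 4 had a log2 fold change below 0, with a median of 0.025. C1qa was at 25.6, 29.4 and 5.16 FPKM in Sphk1/2gc-/- libraries 1 to 3, against 3.88 to 10.5 FPKM in WT. The 6 endothelium markers summed to 13.7 to 17.4 FPKM in WT and to 7.96 to 9.97 FPKM in Sphk1/2gc-/- MGCs, and the 6 smooth muscle and pericyte markers to 53.5 to 64.1 FPKM and 30.5 to 41.9 FPKM, with 0 at 0. Of the markers of these 3 lists 0 were called by limma and 0 by limma-voom in MGCs, and 2 leukocyte, 4 endothelium and 2 smooth muscle and pericyte markers had an unadjusted limma p of 0.05 or less. The part of all these in the differences of Star, Cyp11a1, Hsd17b7, Fdx1 and Sult1e1 was not tested.

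With libraries 1 and 2 of each genotype only, and likewise with sample quality weights, 2 of the 10 genes were called, namely Star and Hsd17b7. Over all tested genes the calls also rose, from 6 of 15279 to 477 of 15433 with libraries 1 and 2 and to 461 of 15279 with weights. The log2 fold change of Hsd17b7 was then −1.79 (limma adjusted p = 0.00908) with libraries 1 and 2 and −1.91 (limma adjusted p = 0.00239) with weights. Cyp19a1 had 0.93 (SE 0.0659, limma adjusted p = 0.0056) with libraries 1 and 2 and 0.86 (limma adjusted p = 0.0318) with weights, under the fold limit in both. The log2 fold changes of Star and Cyp11a1 were negative in each of these fits and with each library left out.

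**Figure D1:**
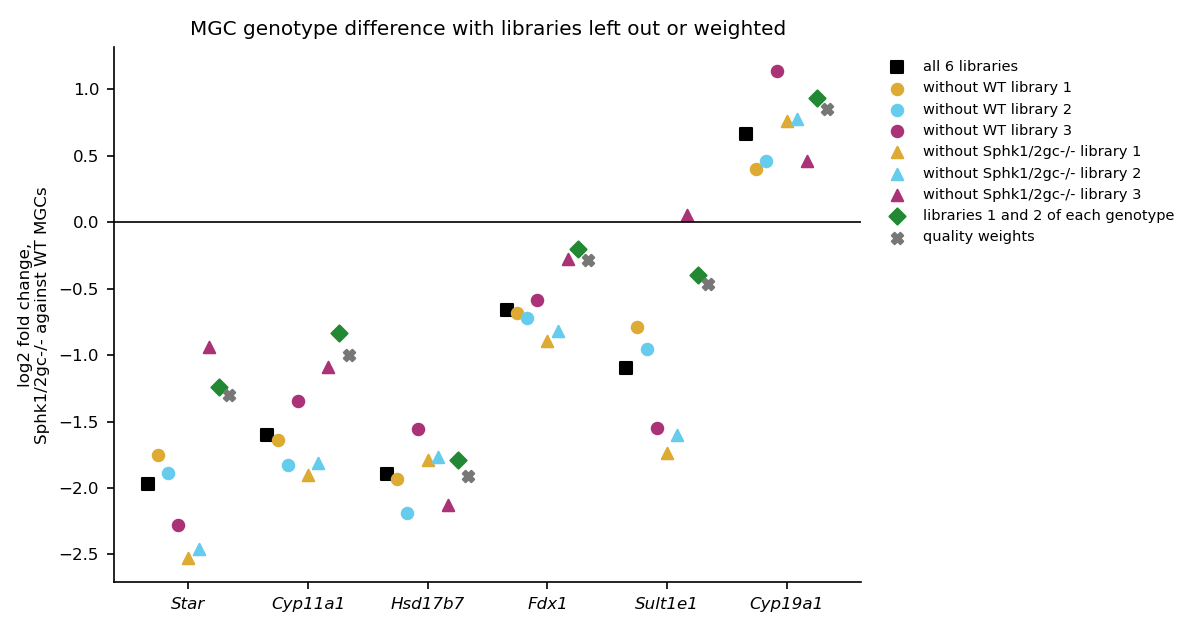
Log2 fold change of 6 genes between Sphk1/2gc-/- and WT MGCs (y axis) with all libraries (square), with each library left out (circles and triangles), with libraries 1 and 2 of each genotype (diamond) and with quality weights (cross). Hsd17b7 stayed between −2.19 and −1.56, whereas Star ranged from −2.53 to −0.94 and Sult1e1 from −1.74 to 0.06 with 1 library left out.

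In cumulus cells, 6 of the 10 genes fell in the libraries labelled Sphk1/2gc-/-, and none rose. They were Cyp11a1, Hsd3b1, Cyp19a1, Hsd17b1, Hsd17b7 and Akr1c18, and for each of them all WT libraries were above all labelled Sphk1/2gc-/- libraries. Of all 12205 tested genes, 3.85% were called lower and 4.19% higher, and 24.1% were lower without overlap. Star, Fdx1, Fdxr and Sult1e1 overlapped between the genotypes. The median log2 fold change of the 10 genes was −2.04, and that of all genes was −0.06.

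Hsd3b1 measured 757, 837 and 897 FPKM in libraries 1 to 3 of WT cumulus cells, compared with 198, 142 and 148 FPKM in those labelled Sphk1/2gc-/-. The lowest WT library was well above the highest of the other group. This was a log2 change of −2.36 (SE 0.172, limma adjusted p = 0.00035), a 5.12-fold lower level with the smallest adjusted p of the 10 genes. Cyp11a1, which acts a step before, was far lower in cumulus cells, with 16.3, 5.86 and 13.5 FPKM in WT, compared with 1.33, 3.20 and 0.608 FPKM in the labelled Sphk1/2gc-/- libraries, the latter from 56 to 304 reads. The log2 fold change was −2.26 (SE 0.42, limma adjusted p = 0.00869), with a wider spread in both groups than for Hsd3b1.

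The 3 genes of estrogen synthesis fell together. Cyp19a1 measured 45.3, 57.5 and 83.7 FPKM in WT, compared with 16.9, 8.90 and 8.11 FPKM in libraries labelled Sphk1/2gc-/- (log2 fold change −2.38, SE 0.306, limma adjusted p = 0.00236). Hsd17b1 measured 1076, 1131 and 1198 FPKM in WT, compared with 333, 218 and 240 FPKM in the others (−2.13, SE 0.183, limma adjusted p = 0.000616). Hsd17b7 measured 21.0, 12.6 and 17.8 FPKM in WT, compared with 4.86, 2.47 and 3.86 FPKM in the others (−1.95, SE 0.246, limma adjusted p = 0.00225). The WT and labelled Sphk1/2gc-/- libraries were apart for all 3. Hsd17b1 had 1135 ± 61.0 FPKM (mean ± SD, n = 3) against 263.5 ± 61.3 FPKM. In relation to its mean, the labelled Sphk1/2gc-/- group thus varied more than WT.

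Akr1c18 varied most between libraries. It measured 19.6, 10.5 and 1.89 FPKM in WT (40 to 380 reads), compared with 0.440, 1.43 and 0.0432 FPKM in libraries labelled Sphk1/2gc-/-, where library 3 had 1 read. The groups did not overlap, but WT library 3 lay close to the other group. The log2 fold change was −2.52 (SE 0.647, limma adjusted p = 0.0278) and lost its call without WT library 1 (adjusted p = 0.086), without WT library 2 (0.0864), without labelled Sphk1/2gc-/- library 3 (0.0988) and without the filter on low values (0.117). Over its alternatives limma gave adjusted p-values of 0.00516 to 0.231.

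The genes that did not pass covered both ends of the pathway. Star measured 37.1, 19.4 and 35.8 FPKM in WT, compared with 19.8, 26.9 and 54.0 FPKM in libraries labelled Sphk1/2gc-/-, with a log2 fold change of 0.06 (95% interval −0.81 to 0.92). Sult1e1 measured 263, 202 and 306 FPKM in WT, compared with 426, 265 and 256 FPKM in the others, with 0.28 (95% interval −0.28 to 0.83). Their intervals excluded the called changes of Hsd3b1 and Cyp19a1 in size but not a smaller change in either direction. Fdx1 measured 917, 762 and 1191 FPKM in WT, compared with 885, 1129 and 1137 FPKM in the others (0.15, 95% interval −0.30 to 0.60), and Fdxr had 6.15 to 12.4 FPKM in WT and 8.40 to 8.99 FPKM in the others (0.02, 95% interval −0.50 to 0.53).

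Ratios between the enzymes restate the levels above and are not further tests. That of Cyp19a1 to Hsd17b1 overlapped, at 0.0421 to 0.0698 in WT and 0.0338 to 0.0506 in the labelled Sphk1/2gc-/- cumulus libraries. Sult1e1 was at 0.179 to 0.255 of the Hsd17b1 level in WT cumulus libraries and at 1.07 to 1.28 of it in the labelled Sphk1/2gc-/- libraries, so that the sulfotransferase went from well below to above Hsd17b1 in FPKM. Hsd17b1 itself stayed above Hsd3b1 in every cumulus library, at 1.33 to 1.42 times its level in WT and 1.53 to 1.68 times in the others. The 10 genes together took 0.615% to 0.806% of the total used for scaling in WT and 0.431% to 0.475% in the labelled Sphk1/2gc-/- cumulus libraries.

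**Figure D2:**
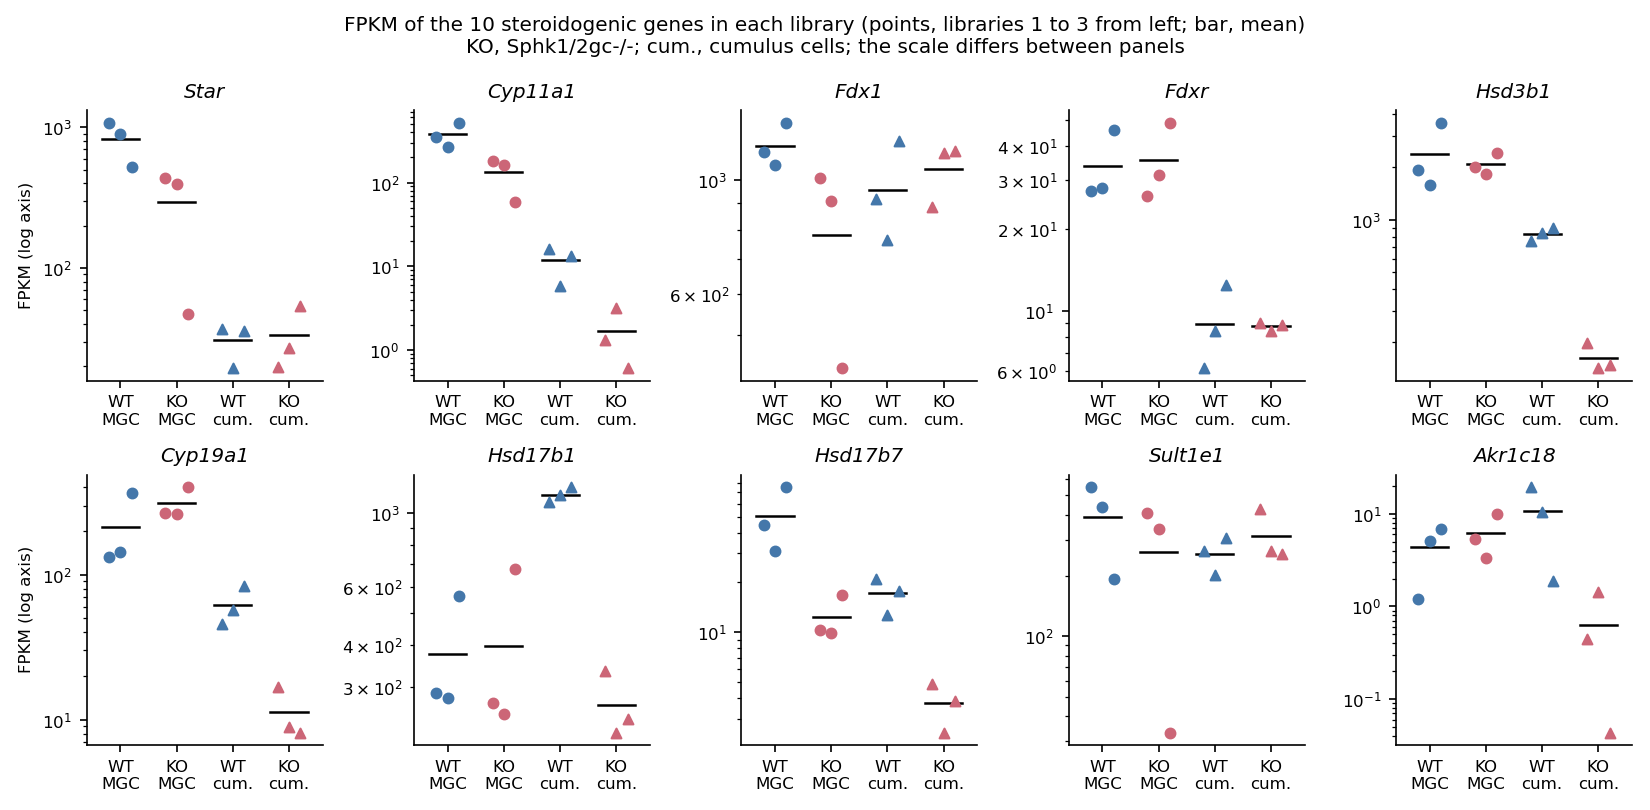
FPKM of the 10 genes (log axes, 1 panel per gene, scales differ) in each library; points are libraries, bars are means of 3, circles are MGCs, triangles are cumulus cells, blue is WT and red is Sphk1/2gc-/- as labelled. The red cumulus points lie below all blue cumulus points for Cyp11a1, Hsd3b1, Cyp19a1, Hsd17b1, Hsd17b7 and Akr1c18, and Sphk1/2gc-/- MGC library 3 lies far below the other MGC points for Star, Fdx1 and Sult1e1.

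Some transcripts of other cell types and states moved with the cumulus genotypes. The theca markers in the cumulus table summed to 26.9 to 59.6 FPKM in WT and to 11.8 to 14.0 FPKM in the labelled Sphk1/2gc-/- libraries, with 0 to 2 of 7 at 0 in a library. Of the 4 tested, 2 were called lower, namely Cyp17a1, which makes androgens (17.9 to 6.60 FPKM in mean, log2 fold change −1.24), and Aldh1a1 (23.1 to 4.03 FPKM in mean, −2.24). Cyp17a1 and Aldh1a1 made up most of these sums. The others tested, Ptch1 (−0.035) and Agtr2 (0.10), were not called. The 7 stroma markers summed to 2.99 to 16 FPKM in WT and 1.65 to 3.92 FPKM in the others, with 1 of 3 tested called lower (Lum) and 0 to 2 at 0 in a library. The proliferation markers summed to 264 to 279 FPKM and 97.9 to 173 FPKM, with 5 of 8 called lower, and the expansion markers to 309 to 703 FPKM and 1077 to 1332 FPKM, with 2 of 4 called higher. The 8 oocyte markers summed to 2.00 to 5.24 FPKM in WT and 1.26 to 1.73 FPKM in the others, with 0 of 3 called by limma and 2 by limma-voom, the number that had an unadjusted limma p of 0.05 or less. Of the 10 granulosa markers, whose sums overlapped (3523 to 4715 and 3349 to 3558 FPKM), 2 were called lower, namely Inhba (−1.35) and Nr5a2 (−1.50). Of 5 tested leukocyte markers, C1qa was called higher (1.33) and S100a9 lower (−2.20), and their sums overlapped (4.98 to 55.3 and 7.40 to 55.6 FPKM). The part of these in the fall of the 6 genes was not tested.

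With only library 1 of those labelled Sphk1/2gc-/-, the one whose Sphk1 reads did not exceed those of WT, Hsd3b1 (−2.06, limma adjusted p = 0.0454) and Hsd17b1 (−1.76, limma adjusted p = 0.0477) were called. Cyp11a1, Cyp19a1, Hsd17b7 and Akr1c18 had log2 fold changes of −2.36, −1.78, −1.61 and −2.61 and limma adjusted p-values of 0.0967, 0.0787, 0.0735 and 0.231. Over the alternatives of these 6 genes the limma adjusted p was not above 0.0454 for Hsd3b1 and not above 0.0477 for Hsd17b1. This fit was added after the data were seen and assumes that the lone library varies like the WT group.

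The differences between the genotypes were then compared between the cell types in a fit over all 12 libraries. Hsd3b1, Cyp19a1 and Hsd17b1 were called, with changes in cumulus cells that were more negative than those in MGCs. Of 15869 genes in this test 1.25% were called lower and 2.06% higher, and 3 of the 10 genes were called lower and 0 higher. The difference of the log2 fold changes was −2.25 for Hsd3b1 (SE 0.378, limma adjusted p = 0.0135), −3.05 for Cyp19a1 (SE 0.552, limma adjusted p = 0.0166) and −2.13 for Hsd17b1 (SE 0.521, limma adjusted p = 0.045). Hsd3b1 kept its call with any library left out, whereas without WT MGC library 1, WT MGC library 2 or labelled Sphk1/2gc-/- cumulus library 3 it was the 1 gene called. The limma adjusted p ranged from 0.000104 to 0.0476 for Hsd3b1, from 0.000131 to 0.055 for Cyp19a1 and from 0.000301 to 0.123 for Hsd17b1 over the alternatives.

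For the other genes a difference between the cell types was not shown by that fit. Hsd17b7 had log2 fold changes of −1.89 and −1.95 in MGCs and cumulus cells, and the interval of their difference ran from −1.05 to 0.94. Cyp11a1 had −1.60 and −2.26 (interval of the difference −2.16 to 0.85). Star, at −1.97 and 0.06, differed by 2.03 (SE 0.996, limma adjusted p = 0.26), and Akr1c18 by −3.03 (SE 0.948, limma adjusted p = 0.0912). Over the alternatives the limma adjusted p ranged from 0.0245 to 0.467 for Star, which was called in 1 of them. For Akr1c18 it ranged from 0.0192 to 0.212, with a call in 2 of them.

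**Figure D3:**
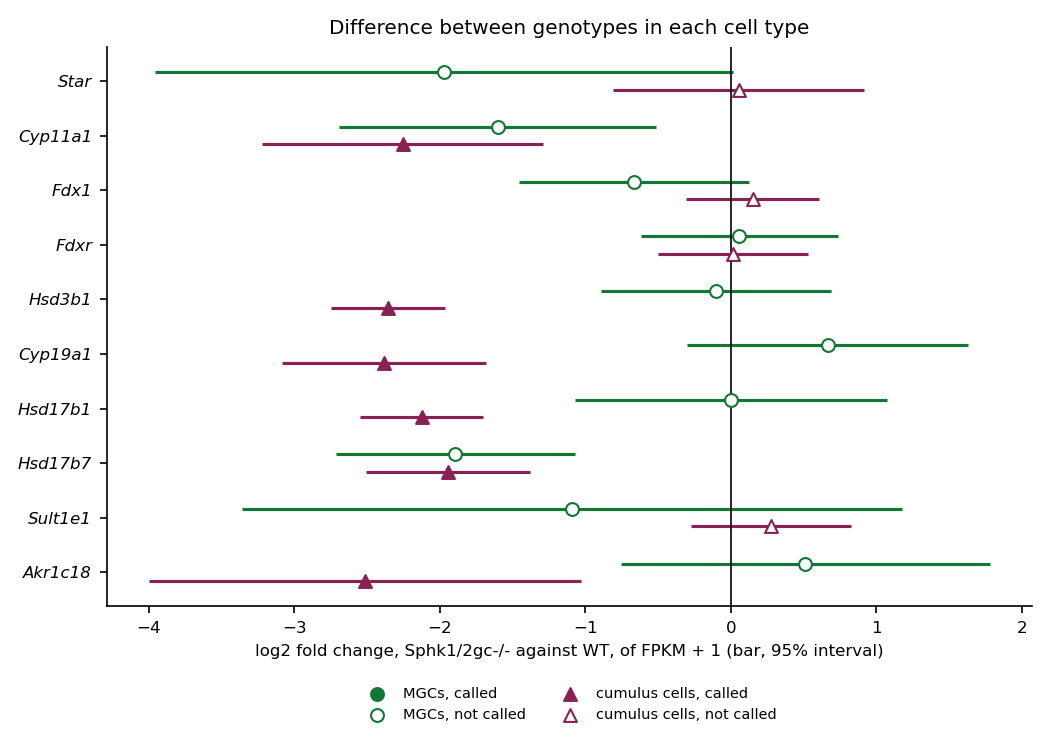
Log2 fold change of Sphk1/2gc-/- against WT (x axis, on FPKM + 1) for the 10 genes in MGCs (circles) and cumulus cells (triangles), with 95% intervals from limma; filled symbols were called. In cumulus cells 6 genes were called at −2.52 to −1.95, and in MGCs none was, with Hsd17b7 at −1.89.

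WT MGCs and WT cumulus cells were compared to describe where the pathway is expressed. Of the 10 genes, 6 were higher in MGCs (Star, Cyp11a1, Hsd3b1, Cyp19a1, Hsd17b7 and Fdxr) and Hsd17b1 was lower. Of all 15869 tested genes 33.3% were called higher in MGCs and 15.4% lower, and the median log2 difference of all genes was 0.54. That both tables share 1 scale is not stated. With libraries scaled to the same median the split over all genes went from 5288 higher and 2445 lower to 3299 higher and 3826 lower, and Hsd3b1 (0.89) and Hsd17b7 (0.91) came under the fold limit.

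The early steps differed most. Star was at 830.3 ± 284.5 FPKM (SD, n = 3) in WT MGCs and 30.7 ± 9.86 FPKM in WT cumulus cells, and Cyp11a1 at 378 ± 129 FPKM and 11.9 ± 5.41 FPKM. Their log2 differences were 4.70 (SE 0.704, limma adjusted p = 6.77e-05) and 4.93 (SE 0.487, limma adjusted p = 1.91e-06). Fdxr was 1.81 higher (SE 0.274, limma adjusted p = 7.42e-05), whereas Fdx1, at 1165 ± 114 FPKM and 957 ± 217 FPKM, did not pass (0.30, 95% interval −0.33 to 0.94). Fdx1 was thus 56.2 to 130.0 times the FPKM of Cyp11a1 in WT cumulus libraries.

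The later steps differed less and in both directions. The log2 difference was 1.41 for Hsd3b1 (2352 ± 1067 against 830.4 ± 70.5 FPKM, limma adjusted p = 0.000436), 1.65 for Cyp19a1 (214 ± 132 against 62.1 ± 19.6 FPKM, limma adjusted p = 0.00216) and 1.44 for Hsd17b7 (limma adjusted p = 0.00153). Hsd17b1 was −1.67 (375 ± 161 against 1135 ± 61.0 FPKM, limma adjusted p = 0.00131), and −2.20 after scaling to the same median. The ratio of Hsd17b1 to Hsd3b1, which no scaling of a library changes, was 0.135 to 0.284 in the 6 MGC libraries and 1.33 to 1.68 in the 6 cumulus libraries. Sult1e1 and Akr1c18 overlapped between the cell types in WT. MGC libraries also held more of the oocyte markers (8 of 8 called higher), theca markers (4 of 6), stroma markers (5 of 7) and leukocyte markers (7 of 8), whose part in these differences was not tested.

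In the order of levels, Hsd3b1 led in WT MGCs (mean of 2352 FPKM) and did not overlap with Fdx1 next to it. Fdx1, Star, Sult1e1, Cyp11a1, Hsd17b1 and Cyp19a1 followed, each overlapping with its neighbour, and Hsd17b7, Fdxr and Akr1c18 were the lowest. In WT cumulus cells Hsd17b1, Fdx1 and Hsd3b1 led and overlapped with their neighbours, then Sult1e1 (257 FPKM) and Cyp19a1 stood apart on both sides, and Star, Hsd17b7, Cyp11a1, Akr1c18 and Fdxr overlapped in a row. In Sphk1/2gc-/- MGCs Hsd3b1 (2068 FPKM) again led without overlap, followed by Fdx1, Hsd17b1, Cyp19a1, Star, Sult1e1 and Cyp11a1, each overlapping with its neighbour, then by Fdxr, and by Hsd17b7 and Akr1c18, which overlapped. In the libraries labelled Sphk1/2gc-/- the order in cumulus cells was led by Fdx1 (1051 FPKM) and Sult1e1 (316 FPKM), with Hsd17b1 overlapping with Sult1e1 and Hsd3b1 at 163 FPKM below them. Star came next and stood apart, then Cyp19a1 and Fdxr, which overlapped, and then Hsd17b7, Cyp11a1 and Akr1c18, each overlapping with its neighbour.

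Between Sphk1/2gc-/- MGCs and the cumulus libraries so labelled, 7 genes were higher in MGCs and 0 lower, against 31.4% of all genes called higher, with a median difference of 0.51 over all genes. They were Star, Cyp11a1, Hsd3b1, Cyp19a1, Hsd17b7, Fdxr and Akr1c18. This comparison shares its libraries with the genotype comparisons above. Hsd3b1 had a log2 difference of 3.67 and Cyp19a1 of 4.70, against 1.41 and 1.65 in WT. Hsd17b1 had 0.46 (95% interval −0.35 to 1.26) and did not pass. Star was called (2.67, limma adjusted p = 0.00459), although its level in Sphk1/2gc-/- MGC library 3 (47.1 FPKM) was below that in labelled cumulus library 3 (54.0 FPKM). Scaling to the same median moved the split of all genes from 4987 higher and 2173 lower to 3058 and 3427, and left Star, Cyp11a1, Hsd3b1, Cyp19a1 and Fdxr higher and called Fdx1 lower (limma adjusted p = 0.0155). Akr1c18 was then not called (1.63, limma adjusted p = 0.0521), nor was it without Sphk1/2gc-/- MGC library 3, without labelled cumulus library 3 or with MGC libraries 1 and 2 only. Its limma adjusted p over the alternatives ranged from 0.00297 to 0.0586.

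**Figure D4:**
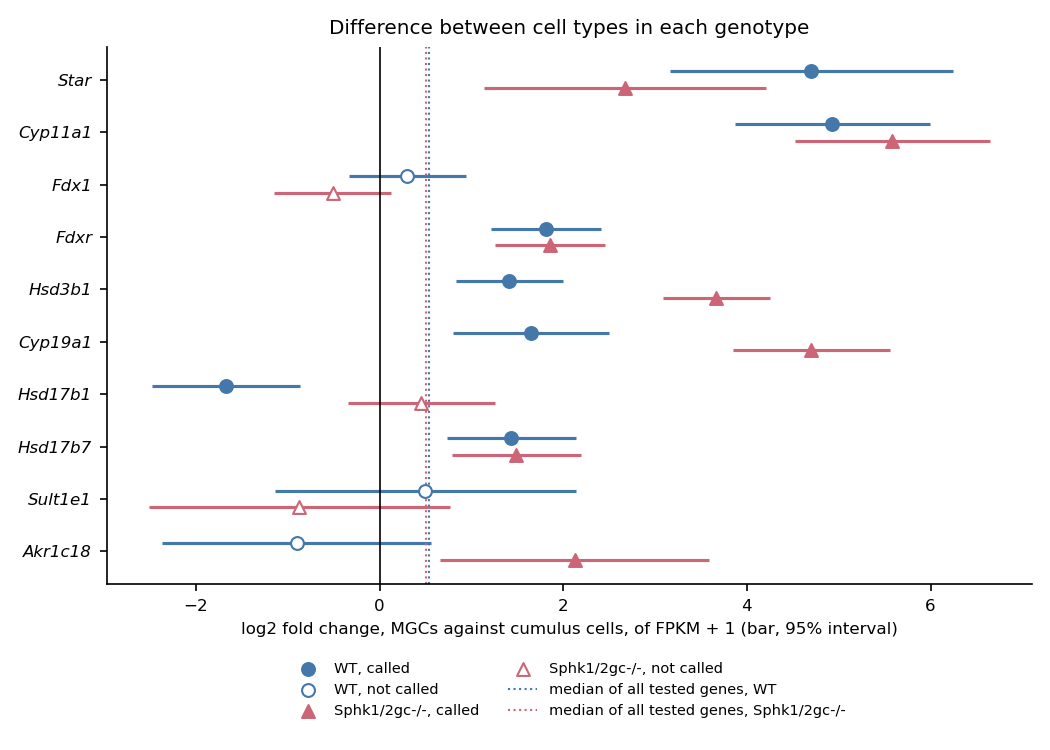
Log2 difference of MGCs against cumulus cells (x axis, on FPKM + 1) for the 10 genes in WT (circles) and Sphk1/2gc-/- as labelled (triangles), with 95% intervals from limma; filled symbols were called, and dotted lines are the medians of all genes at 0.54 and 0.51. Star and Cyp11a1 are far to the right in both genotypes, and Hsd17b1 is the gene called lower, in WT.

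The other genes of steroid metabolism were taken from 5 lists of 71 genes. In MGCs 45 of them were tested and 0 were called by limma in either direction, as by limma-voom, with 4 at an unadjusted p of 0.05 or less by either tool. In cumulus cells 40 were tested, of which 1 was called higher and 6 lower in the libraries labelled Sphk1/2gc-/-, with a median log2 fold change of −0.16. In cholesterol delivery, 1 of 7 was called, namely Stard4, a cholesterol carrier of the cytosol, which went from 14.9 to 3.86 FPKM in mean (log2 fold change −1.70, limma adjusted p = 0.00172). Its difference between the cell types was also called (−1.59, limma adjusted p = 0.0398). Of the 4 tested P450 enzymes and electron donors, Por, which hands electrons to microsomal P450 enzymes such as aromatase, was called higher (1.99 to 4.19 FPKM in WT and 6.21 to 8.57 FPKM in the others, log2 fold change 1.06), and Cyp17a1 was called lower.

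Of the 9 tested dehydrogenases and reductases, Akr1c14, a reductase of 3-ketosteroids, was at 634, 390.0 and 271 FPKM in WT and at 163, 109 and 81.7 FPKM in the labelled Sphk1/2gc-/- cumulus libraries (−1.83), and Akr1c13 also fell (−1.91). Both groups were apart for both genes. Akr1c13 shares much sequence with its neighbours of the Akr1c family, and how shared reads were counted is not stated. Hsd17b10, Hsd17b12 and Hsd17b4 were not called, although Hsd17b4 passed the adjusted p under the fold limit (0.60, limma adjusted p = 0.0269). Among the 6 tested genes of estrogen inactivation and sulfate transfer 0 were called by limma and 2 by limma-voom (Papss1 lower, and Sult1a1, named after its values were seen, higher), the same number as at an unadjusted limma p of 0.05 or less. Papss1, which makes the sulfate donor used by SULT1E1, was at 22.5 to 26.5 FPKM in WT and 10.3 to 14.1 FPKM in the others, just under the fold limit at −0.99. In MGCs Akr1c14 was at 202 FPKM in Sphk1/2gc-/- library 3 and at 39.8 to 90.9 FPKM in the other libraries.

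Of the 14 regulators, 2 fell in the labelled Sphk1/2gc-/- cumulus libraries. The LH receptor gene Lhcgr was at 18.7, 7.71 and 12.6 FPKM in WT and at 1.93, 4.62 and 2.82 FPKM in the others (log2 fold change −1.74). Nr5a2, a nuclear receptor that acts on steroidogenic promoters, was at 32.3, 25.0 and 27.5 FPKM in WT and at 7.22, 10.5 and 10.6 FPKM in the others (−1.50). All WT libraries were above all others for both. For Nr5a2 the difference between the cell types was called (−1.53), and its means in MGCs were 278 FPKM (WT) and 285 FPKM (Sphk1/2gc-/-). Nr5a1, Gata4, Gata6, Cebpb, Esr2, Fshr, Crem, Foxl2, Pgr and Nr4a1 were not called in either cell type. In cumulus cells Fshr (−0.72, limma adjusted p = 0.0391) and Foxl2 (−0.49, limma adjusted p = 0.0457) passed the adjusted p but not the fold limit. Nr4a1 was at 484, 453 and 400 FPKM in Sphk1/2gc-/- MGCs against 645 to 669 FPKM in WT MGCs (−0.56, limma adjusted p = 0.296). Between WT MGCs and WT cumulus cells, 21 of 46 tested genes of the lists were higher in MGCs and 6 lower. Of all genes 33.3% were called higher and 15.4% lower, shares that moved with the scaling as given above. Among the list genes Nr4a1 (6.17), Por (5.00), Lhcgr (4.56) and Nr5a2 (3.25) were higher, and Hsd17b10 (−3.37) and Cyb5a (−2.93) were lower.

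**Figure D5:**
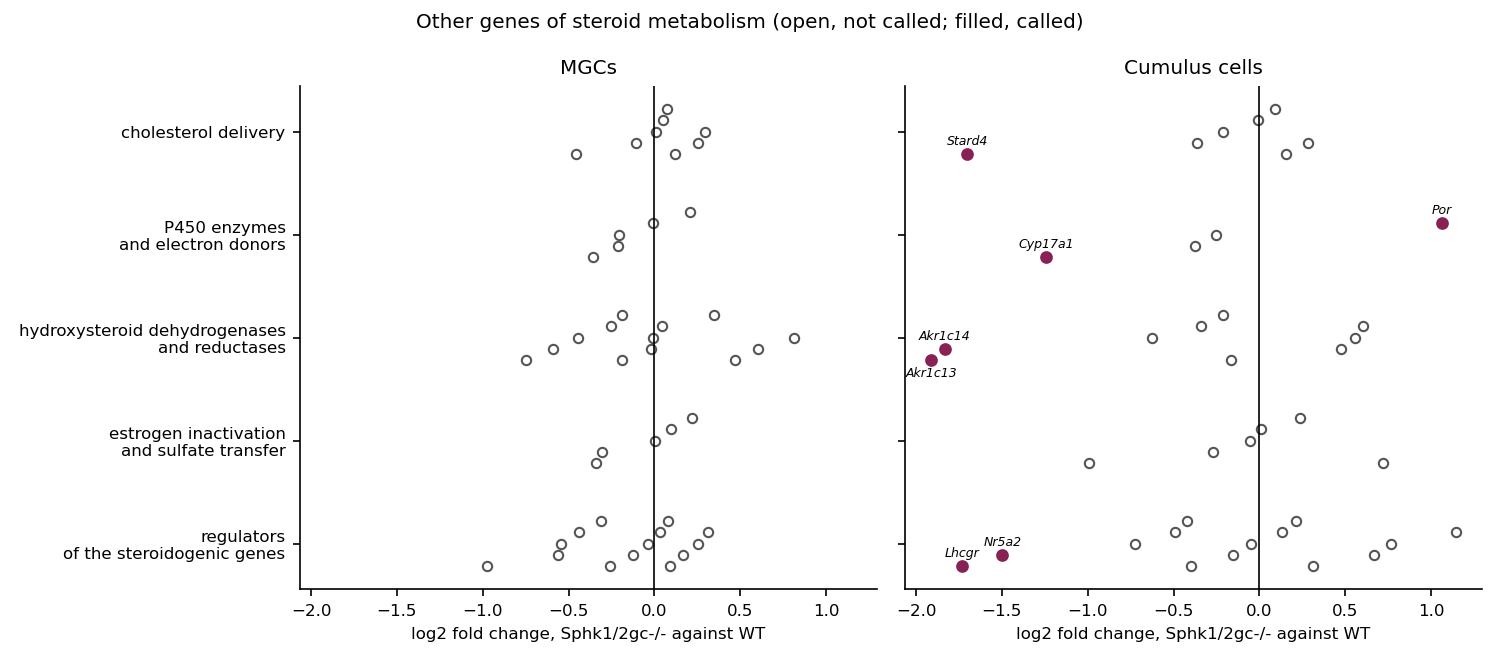
Log2 fold change of Sphk1/2gc-/- against WT (x axis) for the tested genes of 5 lists of steroid metabolism (rows) in MGCs (left) and cumulus cells (right), 1 point per gene, spread vertically only for legibility; filled, named points were called. In MGCs 0 of 45 were called, and in cumulus cells 6 of 40 were called lower and 1 higher.

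The genes whose levels followed a member most closely over the 12 libraries were taken by Pearson's r of log2(FPKM + 1) among the 6719 genes whose mean reached 5 FPKM. They are descriptions of libraries that share 4 groups. For Star they were Sgtb (0.989), Chp1 (0.988) and Cebpa (0.985), and for Cyp11a1 Ddit4l (0.992), Ccng2 (0.988) and Ogn (0.984). Cyp19a1 was followed by Mid1ip1 (0.993) and Prkar2b (0.976), which encodes a regulatory subunit of protein kinase A. Prkar2b had means of 622 and 589.5 FPKM in WT and Sphk1/2gc-/- MGCs and of 192 and 66.7 FPKM in the cumulus groups, the same order as for aromatase in cumulus cells. Sult1e1 had no gene as close, with Cd36 (0.895), mt-Nd4 (0.894) and Ggct (0.876).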

How the data were processed

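RNA-seq of MGCs and cumulus cells gave 12 libraries in 4 groups of 3. The authors deposited FPKM (fragments scaled for exon length and for the library total) in 1 table per cell type. The submitters' processing notes name HISAT2 and GRCm38, and the counting tool is not given in the sources used here. Of all columns 0 were left unused. Names, positions and exon lengths of genes were those of GENCODE M21 on GRCm38, where 64 and 66 of the listed genes had no match. FPKM times exon length gave whole reads for 90.6% to 92.1% of values (tolerance 0.02 reads), and for the 10 genes in every library.

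Genotypes were compared per cell type, and cell types and the difference of genotype effects over 12 libraries (genes in both tables), with limma 3.58.1 in R 4.3.3, with an intensity trend, on log2(FPKM + 1), which understates changes of low genes. Tested were genes whose mean reached 0.5 FPKM in any group, with Benjamini-Hochberg adjustment over all of them. The 10 genes passed this filter in every group. The limits for a call were 0.05 for the adjusted p and 1 for the size of the log2 fold change. SE is limma's moderated standard error. The code was tested on simulated data. Alternatives were another pseudocount (0.1), no filter, scaling to the same median, quality weights, a replicate block, limma-voom on recovered reads, no fold limit, left-out libraries and MGC libraries 1 and 2 only.

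The 10 genes, the lists and the tests were chosen with earlier results of these data known. Named are the 10 genes, list genes that were called or whose mean reached 20 FPKM in a group, and for 4 genes the 3 with the highest r, of which 1 is not reported here. After removal of group means, same-numbered MGC libraries of the genotypes had correlations of 0.235, 0.172 and 0.230. All were above 0.1, the limit at which the numbers were taken to pair them. Differently numbered MGC libraries had −0.243 to 0.165, and WT library 1 with Sphk1/2gc-/- library 2 (0.165) also passed this limit. The numbers were thus taken, not shown, to pair the libraries. Apart from those of the replicate block, the SEs, intervals and p-values given for MGCs are from fits without this pairing. The pairing comes from the data alone, as the labels name no shared animal or batch. In cumulus cells the values were −0.154, −0.0513 and 0.120.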

Additional observations from a re-analysis of the deposited data

Results flagged for a closer look

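The effect of the genotype differed between the cell types for Hsd3b1, Cyp19a1 and Hsd17b1, by a test of that difference. Taking the MGC log2 fold change from that of cumulus cells gave −2.25 for Hsd3b1 (limma adjusted p = 0.0135), −3.05 for Cyp19a1 (limma adjusted p = 0.0166) and −2.13 for Hsd17b1 (limma adjusted p = 0.045). In cumulus cells 3 of 3 libraries labelled Sphk1/2gc-/- were below every WT library for each gene, whereas in MGCs the groups overlapped. The direction in cumulus cells rests on the labels, and the low Sphk1 reads went against these in labelled Sphk1/2gc-/- libraries 2 and 3.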

How the results depend on the processing

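The number of called genes among the 10 in MGCs went from 0 to 2 (Star and Hsd17b7) with quality weights and to 2 with MGC libraries 1 and 2 only, and was 0 with any library left out. In cumulus cells it was 5 to 6 with 1 library left out, 5 without the filter, and 2 with library 1 alone of those labelled Sphk1/2gc-/-, which leaves 4 libraries in the fit. The number of genes whose effect differed between cell types went from 3 to 5 with quality weights and was 1 to 3 with 1 library left out, 1 without WT MGC library 1, WT MGC library 2 or labelled Sphk1/2gc-/- cumulus library 3. Between cell types 7 became 5 to 8 in WT and 6 to 7 in Sphk1/2gc-/-. The cause was not tested. With the replicate block the counts were 0, 6, 3, 7 and 7, as without it, and the block changed no call of a gene among the 10. In cumulus cells the numbers share only a number, and over all genes the block moved the count there from 981 to 962. Over all genes in MGCs the count was 6 (1 higher, 5 lower), 1 (higher) after scaling to the same median or without the filter, 3 with the block, 0 by limma-voom, 461 with weights, 477 with libraries 1 and 2 only and 170 without Sphk1/2gc-/- library 3. In cumulus cells 981 became 1674 with a pseudocount of 0.1, 1955 by limma-voom, 2725 without the fold limit and 52 with library 1 alone. Of the differences between cell types in genotype effect 526 became 1543 with weights, 251 without the filter and 106 without WT MGC library 1. Of 830 alternative log2 fold changes of single genes 756 kept direction and call, 26 lost a call, 10 gained one and 38 changed sign, none of them called.

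Signs changed in MGCs with weights for Hsd3b1 (0.018) and Hsd17b1 (−0.20) and with libraries 1 and 2 only for Hsd3b1 (0.13) and Hsd17b1 (−0.14). With 1 library left out, MGC log2 fold changes ranged from −0.34 to 0.24 for Hsd3b1, −0.46 to 0.33 for Hsd17b1, −0.19 to 0.30 for Fdxr, −1.74 to 0.058 for Sult1e1 and −0.035 to 0.87 for Akr1c18. In cumulus cells they ranged from −0.34 to 0.36 for Star, −0.0019 to 0.32 for Fdx1 and −0.20 to 0.25 for Fdxr. Weights gave −0.023 for Fdxr, and library 1 alone gave −0.55 for Star and −0.088 for Fdx1. The difference between cell types ranged from −0.28 to 0.20 for Fdxr and −0.39 to 0.24 for Hsd17b7. Between MGCs and cumulus cells, scaling to the same median gave −0.22 for Fdx1 and −0.029 for Sult1e1 in WT and −0.041 for Hsd17b1 in Sphk1/2gc-/-. In the latter Sult1e1 had 0.29 with weights and 0.28 with libraries 1 and 2 only, Hsd17b1 had −0.011 with these, and with 1 library left out they ranged from −1.52 to 0.28 and −0.011 to 0.72. Akr1c18 had 1 to 380 reads in a cumulus library, with 380, 228 and 40 in WT libraries 1 to 3. How far depth limits its precision was not tested.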
